A study of Homo sapiens with 6 samples.

Results

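The genes described here are those of the hypoxia-inducible factor (HIF) pathway: the HIF subunits, the enzymes that sense oxygen and mark HIF for destruction, and targets of HIF outside glycolysis. They were chosen by gene symbol from a list of 32 names, all 32 of which were among the 26255 genes of each library. The list was chosen with earlier results of these data known, so its comparison with all genes is a description. Messenger RNA was sequenced from ZsGreen-positive (3 libraries) and ZsGreen-negative (3 libraries) cells of HCT116, an established human colorectal carcinoma line. Both groups came, per the series title, from cells transduced with the degron of ornithine decarboxylase, a ubiquitin-independent signal for destruction by the proteasome. Fluorescence of ZsGreen joined to such a degron builds up where proteasomal degradation is slow. The title names cancer stem cell models as the application. No label names a separate culture for each library, a clone or a treatment, and no source used here gives the oxygen level in culture. Each p-value thus reflects library-to-library scatter, and how much of that scatter is technical is not known.

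HIF is a pair of proteins, an alpha subunit that oxygen makes unstable and a stable partner, ARNT. In the presence of oxygen, prolyl hydroxylases of the EGLN family modify the alpha subunit, the VHL ubiquitin ligase binds it, and the proteasome destroys it. When oxygen is scarce the pair binds DNA and raises genes for blood vessel growth, acid balance, collagen processing and metabolism, a response that many carcinomas use. HIF-alpha is mainly controlled as a protein, which these data do not measure.

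Levels are the deposited FPKM. By definition this is a fragment count divided by transcript length in kilobases and by the library's mapped total in units of 1000000. Whether the values were also scaled between libraries is not given. An estimate from the steps between low values gave 11900000 to 13300000 fragments in the ZsGreen-positive and 9200000 to 9710000 in the ZsGreen-negative libraries. By this estimate 1 FPKM stood for 11.9 to 13.3 and 9.2 to 9.71 fragments per kilobase. If the values were scaled between libraries, the estimated totals are not the depth of sequencing. The labels name the libraries of the 2 groups by different schemes. Estimated depth and any batch coincided with the groups and cannot be told apart from them. Of 9 markers of colon carcinoma epithelium, 7 were at 1 FPKM or more in every library, and the list summed to 3152 to 3583 FPKM in ZsGreen-positive and 4246 to 4312 FPKM in ZsGreen-negative libraries. CDH1, KRT8 and KRT18 fell and EPCAM and CDX2 rose, with CDH1 at 17.4 ± 1.42 FPKM in ZsGreen-positive and 49.8 ± 0.455 FPKM in ZsGreen-negative libraries (limma adjusted p = 5.46e-06) and EPCAM at 147 ± 7.75 and 129 ± 3.86 FPKM (limma adjusted p = 0.0321; SD, n = 3 each). The part of these differences in the results on the pathway was not tested. VIL1 and LGALS4, both intestinal genes, were near 0 in all libraries. The summed level of 4 leukocyte markers was 0.471 to 4.13 FPKM in ZsGreen-positive against 1.38 to 1.86 FPKM in ZsGreen-negative libraries. For 4 endothelial markers it was 0.171 to 0.310 against 0.107 to 0.142 FPKM, and for 5 fibroblast markers 0.731 to 1.19 against 2.35 to 2.50 FPKM. CD3E, COL1A2 and DCN were listed at 0 in every library, and PTPRC in every ZsGreen-positive library. In bulk RNA, fewer cells of a type and less RNA per cell cannot be told apart. The spread was wider in the ZsGreen-positive group: the SD of log2(FPKM + 1) was larger there for 24 of the 28 tested members (85.7%) and for 88.4% of all tested genes. More genes were listed at 0 there as well, 10314, 11624 and 11989 against 8985, 9040 and 9162 in the ZsGreen-negative libraries. The cause was not tested, and it limits the reading of low values and zeros.

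Most hypoxia genes were lower in ZsGreen-positive cells. Of the 32 members, 28 reached the mean of 1 FPKM needed for testing, and 20 of these fell, 3 rose and 5 did not pass (limma on log2(FPKM + 1), Benjamini-Hochberg over all 12213 tested genes, adjusted p under 0.05). Among all tested genes 30.0% fell and 29.4% rose, with 59.4% passing in either direction. At least 2-fold falls were found for 9 of the 28 members and at least 2-fold rises for 0, against 8.34% and 9.48% of all tested genes. All 3 libraries of one group lay below all 3 of the other for 24 of the 28 members, 19 of them with ZsGreen-positive cells lower, where 67.6% of all tested genes were so separated, 34.5% lower and 33.2% higher. The median log2 fold change, positive minus negative, was -0.61 for the 28 members and 0.0040 for all tested genes. When the FPKM of each library were brought to a total of 1000000, the median of all tested genes moved by over 0.1, to 0.14, that of the members was -0.42, and 15 members fell and 4 rose.

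**Figure D1:**
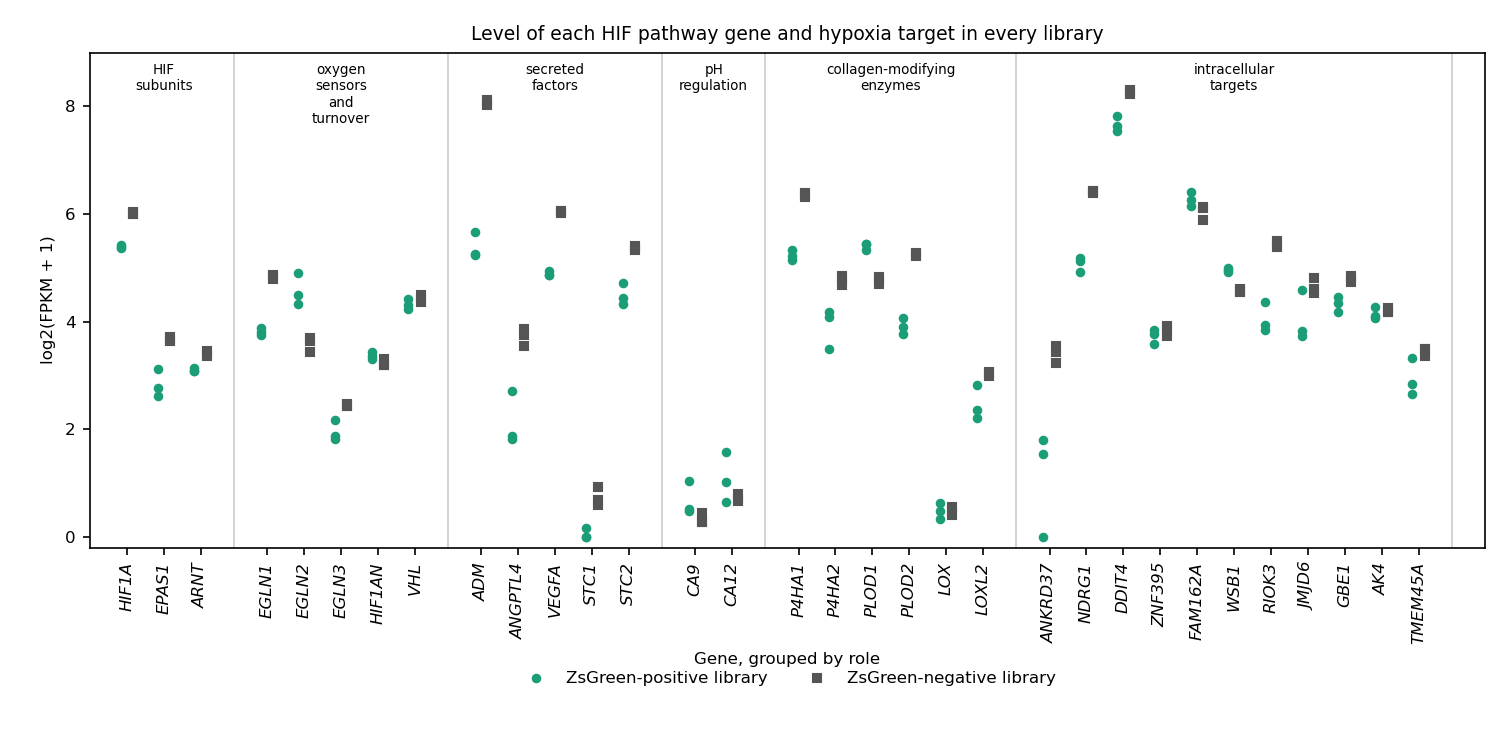
Level of each of the 32 genes, as log2(FPKM + 1), in the ZsGreen-positive (circles) and ZsGreen-negative (squares) libraries, one point per library, grouped by role. Circles lie below squares for most genes, with the widest gaps at ADM and ANKRD37, while EGLN2, PLOD1, WSB1, HIF1AN, FAM162A and CA9 have all circles above all squares, and CA9, CA12, LOX and STC1 lie near the bottom of the scale.

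All 3 HIF subunits fell, where 30.0% of all tested genes fell. HIF1A, the alpha subunit found in nearly all tissues, had 40.7, 40.2 and 42.1 FPKM in the ZsGreen-positive libraries, against 64.4, 63.0 and 63.1 FPKM in the ZsGreen-negative libraries. The groups did not overlap, and the spread within each was small beside the gap (log2 fold change -0.62 ± 0.055 (SE), limma adjusted p = 6.94e-05). EPAS1, which encodes the second alpha subunit HIF-2 alpha, had 7.72, 5.81 and 5.14 FPKM in ZsGreen-positive cells and 12.1, 11.6 and 11.5 FPKM in ZsGreen-negative cells. Its fall (log2 fold change -0.83 ± 0.14, limma adjusted p = 0.00155) was smallest in ZsGreen-positive replicate 1, and with that library as the only positive one it was -0.54. ARNT, the shared partner, had 7.78, 7.47 and 7.45 FPKM in the ZsGreen-positive libraries against 9.71, 9.92 and 9.32 FPKM in the ZsGreen-negative libraries, a fall of the smallest size among the subunits (log2 fold change -0.31 ± 0.083, limma adjusted p = 0.0133). The call on ARNT was lost without ZsGreen-negative replicate 1 (adjusted p = 0.0646), without ZsGreen-negative replicate 2 (0.0756), with a replicate block (0.0507) and after the rescaling (log2 fold change -0.14, adjusted p = 0.260). HIF1A transcripts were 6.80 ± 1.47 times as abundant as EPAS1 transcripts in ZsGreen-positive and 5.43 ± 0.0853 times in ZsGreen-negative libraries, ratios that overlapped between the groups.

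HIF1A-AS2, an RNA from the opposite strand of the HIF1A locus, was examined after its values were seen. It had 10.4, 7.22 and 14.3 FPKM in the ZsGreen-positive libraries and 26.6, 27.5 and 29.7 FPKM in the ZsGreen-negative libraries (log2 fold change -1.36 ± 0.21, limma adjusted p = 0.000985). The library kit keeps strand, but whether strand was used in counting is not given in the sources used here, so the contribution of antisense reads to the HIF1A value was not tested.

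The 3 HIF prolyl hydroxylases did not move together. EGLN1 (PHD2), the main oxygen sensor in most cells, had 12.4, 13.0 and 13.8 FPKM in the ZsGreen-positive libraries against 28.2, 27.8 and 26.7 FPKM in the ZsGreen-negative libraries. The groups were far apart, with a mean 2.11-fold lower in ZsGreen-positive cells (log2 fold change -1.02 ± 0.073, limma adjusted p = 2.45e-05). EGLN2 (PHD1) went the other way, with 19.1, 21.5 and 28.9 FPKM in ZsGreen-positive cells and 11.9, 9.76 and 11.5 FPKM in ZsGreen-negative cells. This rise (log2 fold change 0.99 ± 0.15, limma adjusted p = 0.00114) was the largest among the 28 tested members. EGLN3 (PHD3), a hydroxylase that HIF itself strongly induces in many cells, was the least abundant of the family, with 2.68, 3.50 and 2.53 FPKM in the ZsGreen-positive libraries and 4.40, 4.52 and 4.36 FPKM in the ZsGreen-negative libraries. It fell by 0.48 ± 0.13 on the log2 scale (limma adjusted p = 0.0166), a call that was lost on leaving out ZsGreen-negative replicate 1, 2 or 3 (adjusted p = 0.0635, 0.0713 and 0.0606) and after the rescaling (adjusted p = 0.125).

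As a result of these opposite differences the order of the first 2 hydroxylases was exchanged. EGLN2 supplied 58.8% ± 4.41 of the summed FPKM of the family in ZsGreen-positive and 25.6% ± 2.1 in ZsGreen-negative libraries, and EGLN1 33.6% ± 2.90 and 64.1% ± 1.73 (SD, n = 3 each). The ratio of EGLN2 to EGLN1 was 1.55, 1.66 and 2.1 in the ZsGreen-positive libraries and 0.422, 0.352 and 0.429 in the ZsGreen-negative libraries. The family sum was 34.2, 38.0 and 45.3 FPKM in ZsGreen-positive libraries and 44.4, 42.0 and 42.5 FPKM in ZsGreen-negative libraries, so the groups overlapped in total hydroxylase transcript. RAB4B-EGLN2, a readthrough transcript that contains EGLN2, was listed at 4.49, 0 and 0 FPKM in ZsGreen-positive and 0.525, 0 and 0 FPKM in ZsGreen-negative libraries. Added to EGLN2 it gave 23.6, 21.5 and 28.9 FPKM against 12.4, 9.76 and 11.5 FPKM, still without overlap.

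**Figure D2:**
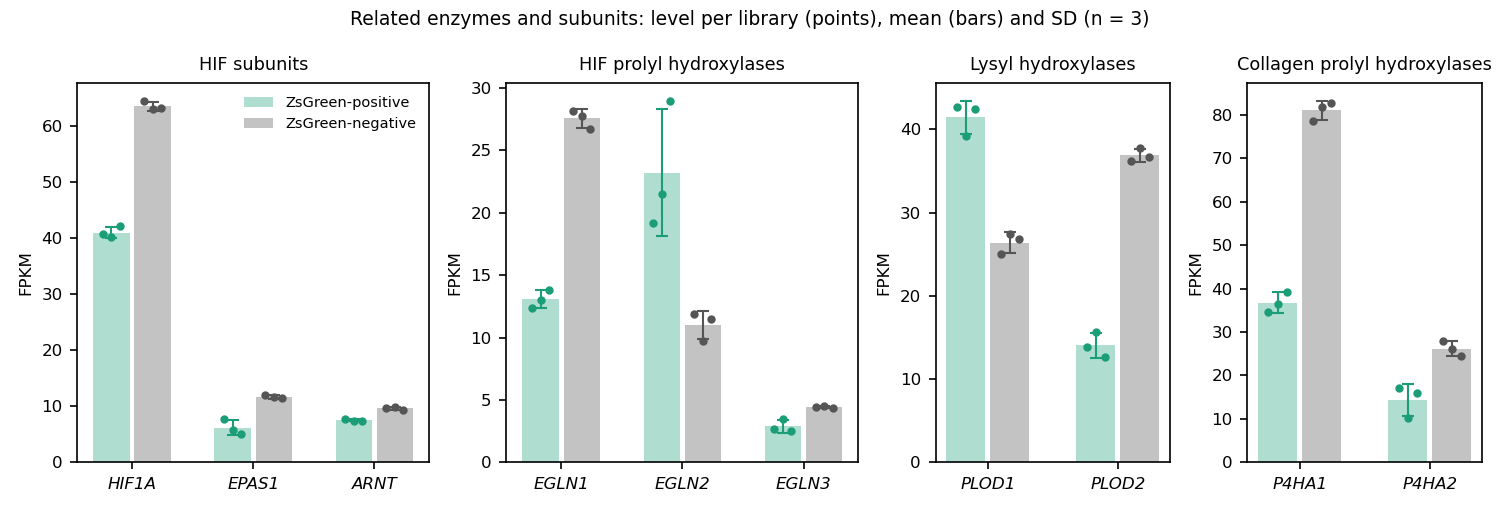
FPKM of the HIF subunits, the HIF prolyl hydroxylases, the lysyl hydroxylases and the collagen prolyl hydroxylases in ZsGreen-positive (left of each pair) and ZsGreen-negative libraries; points are libraries, bars are means and error bars are SD (n = 3). EGLN2 and PLOD1 are higher in ZsGreen-positive cells, where the other 8 genes shown are lower.

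HIF1AN (FIH), the asparagine hydroxylase that blocks coactivator binding by HIF, had 9.22, 9.77 and 8.89 FPKM in the ZsGreen-positive libraries and 8.15, 8.09 and 8.87 FPKM in the ZsGreen-negative libraries (log2 fold change 0.14 ± 0.088, limma adjusted p = 0.221). VHL, the ligase subunit that recognises hydroxylated HIF-alpha, had 17.7, 20.5 and 18.7 FPKM in ZsGreen-positive cells and 21.5, 20.3 and 19.5 FPKM in ZsGreen-negative cells (log2 fold change -0.10 ± 0.082, limma adjusted p = 0.307). Values of VHL overlapped between the groups, and its sign turned after the rescaling. Neither gene passed, which does not show that their levels were equal. The elongins that join VHL in its ligase differed in opposite directions and are named after their values were seen. TCEB1 (elongin C) fell to 24.8 ± 1.67 FPKM in ZsGreen-positive libraries, against 41.0 ± 3.34 FPKM in ZsGreen-negative libraries (log2 fold change -0.70 ± 0.086, limma adjusted p = 0.000347). TCEB2 (elongin B) rose to 185 ± 2.42 FPKM in ZsGreen-positive libraries, against 117 ± 4.27 FPKM in ZsGreen-negative libraries (log2 fold change 0.65 ± 0.053, limma adjusted p = 4.5e-05).

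The promoters of the 3 hydroxylases are shown because the genes differ in direction and are themselves known hypoxia genes or close relatives of them. HIF binds DNA at the core letters ACGTG or GCGTG, called a hypoxia response element. The sequences are the 250 bases before the annotated start, read 5′ to 3′ on the gene's strand from RefSeq (GRCh38.p14), with ACGTG and GCGTG in capitals wherever either is found, on this strand or, as its reverse complement, on the other. EGLN1 lies at chr1:231422288-231422537 (minus strand), EGLN2 at chr19:40798941-40799190 (plus strand) and EGLN3 at chr14:33951075-33951324 (minus strand).
EGLN1: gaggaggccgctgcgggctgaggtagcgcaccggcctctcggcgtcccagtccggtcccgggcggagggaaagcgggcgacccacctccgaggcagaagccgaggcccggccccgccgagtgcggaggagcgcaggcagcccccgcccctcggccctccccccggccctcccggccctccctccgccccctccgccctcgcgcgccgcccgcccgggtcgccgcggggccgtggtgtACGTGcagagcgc
EGLN2: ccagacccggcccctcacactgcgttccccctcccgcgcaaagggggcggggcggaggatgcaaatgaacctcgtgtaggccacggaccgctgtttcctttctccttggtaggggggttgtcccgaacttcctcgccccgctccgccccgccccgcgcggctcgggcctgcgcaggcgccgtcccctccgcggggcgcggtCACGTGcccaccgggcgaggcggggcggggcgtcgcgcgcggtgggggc
EGLN3: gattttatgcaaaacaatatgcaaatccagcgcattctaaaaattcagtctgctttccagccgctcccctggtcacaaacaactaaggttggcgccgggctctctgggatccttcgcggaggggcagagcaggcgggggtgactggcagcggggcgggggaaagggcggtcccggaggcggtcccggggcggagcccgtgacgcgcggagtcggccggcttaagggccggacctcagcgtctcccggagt
EGLN1 has ACGTG beginning 13 bases before its start. EGLN2 has the palindrome CACGTG, which matches on both strands, beginning 49 bases before its first listed start. EGLN3 has neither core in this window. A match is a description of letters and not a measured binding site.

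Promoters were found by symbol for 25 of the 32 members. ACGTG was present on either strand within the 250 bases in 14 of them (56.0%) and in 21.7% of the 27305 genes in the table, and GCGTG in 13 (52.0%) and in 36.2%. At least 1 of both cores occurred in 20 members (80.0%) and in 47.4% of all genes. Several members are textbook HIF targets, and a gene with more than 1 listed start counted once if any of them had a match. The 27305 genes were not limited to those tested here, so the shares among tested genes are not known. Among the members with a promoter, at least 1 core was present in all 3 that rose (EGLN2, PLOD1 and WSB1) and in 12 of 16 that fell.

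All 4 tested secreted hypoxia targets fell, with a median log2 fold change of -1.38, where 30.0% of all tested genes fell. ADM, which encodes the vessel-widening peptide adrenomedullin, had 49.6, 37.3 and 36.8 FPKM in the ZsGreen-positive libraries against 259, 277 and 262 FPKM in the ZsGreen-negative libraries. Its mean in ZsGreen-positive cells was 15.5% of that in ZsGreen-negative cells, and its log2 fold change of -2.67 ± 0.11 held rank 40 from the lowest among the 12213 tested genes (limma adjusted p = 2.94e-06). ANGPTL4, a secreted inhibitor of lipoprotein lipase, had 5.54, 2.50 and 2.65 FPKM in ZsGreen-positive cells and 10.7, 12.5 and 13.6 FPKM in ZsGreen-negative cells (log2 fold change -1.60 ± 0.24, limma adjusted p = 0.001). ZsGreen-positive replicate 1 was above the other positive libraries, and with it as the only positive library the value was -1.02. With a pseudocount of 5 it was -1.03.

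VEGFA, the main growth factor of blood vessels, was the most even of the secreted targets. It had 28, 29.5 and 28.1 FPKM in the ZsGreen-positive libraries against 63.6, 65.2 and 65.4 FPKM in the ZsGreen-negative libraries, with no overlap (log2 fold change -1.16 ± 0.057, limma adjusted p = 5.01e-06). The stanniocalcins are glycoprotein hormones of calcium and phosphate balance. STC2 averaged 21.6 ± 3.14 FPKM in ZsGreen-positive and 40.1 ± 1.24 FPKM in ZsGreen-negative libraries (SD, n = 3 each; log2 fold change -0.87 ± 0.10, limma adjusted p = 0.000296). STC1 was below the limit for testing and was listed at 0.124, 0 and 0 FPKM in ZsGreen-positive and 0.505, 0.903 and 0.599 FPKM in ZsGreen-negative libraries.

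ADM lies at chr11:10304823-10305072 (plus strand) with its 250 upstream bases, and ANKRD37, the second strongest fall, at chr4:185396591-185396840 (plus strand). Both are shown as the promoters of the members with the largest falls, with the same letters in capitals.
ADM: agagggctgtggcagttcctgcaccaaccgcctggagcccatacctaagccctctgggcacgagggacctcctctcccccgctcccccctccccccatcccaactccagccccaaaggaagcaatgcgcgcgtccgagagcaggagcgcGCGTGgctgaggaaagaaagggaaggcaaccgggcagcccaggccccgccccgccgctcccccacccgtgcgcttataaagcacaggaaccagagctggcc
ANKRD37: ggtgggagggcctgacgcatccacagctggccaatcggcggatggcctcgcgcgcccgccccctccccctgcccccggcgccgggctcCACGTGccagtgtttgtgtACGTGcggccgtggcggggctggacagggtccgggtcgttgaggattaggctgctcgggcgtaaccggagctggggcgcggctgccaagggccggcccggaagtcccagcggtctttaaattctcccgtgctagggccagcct
ADM has 1 match, GCGTG beginning 101 bases before the start. ANKRD37 has the palindrome CACGTG beginning 162 bases and a further ACGTG 143 bases before the start.

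The membrane carbonic anhydrases, which turn carbon dioxide into bicarbonate and are classic markers of hypoxic tumours, were low in both groups and were not tested. CA9 had 0.387, 0.426 and 1.04 FPKM in ZsGreen-positive and 0.204, 0.214 and 0.351 FPKM in ZsGreen-negative libraries. CA12 had 1.98, 1.03 and 0.558 FPKM in ZsGreen-positive and 0.741, 0.618 and 0.579 FPKM in ZsGreen-negative libraries. All CA9 values of the ZsGreen-positive libraries were above those of the ZsGreen-negative libraries, opposite to the direction of most targets, while the CA12 values overlapped. At the lower of these values a library holds only a few fragments per kilobase, which limits any statement on either gene.

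Of 5 tested collagen-modifying enzymes, 4 fell and PLOD1 rose, where 30.0% of all tested genes fell and 29.4% rose. P4HA1, a catalytic subunit of the collagen prolyl hydroxylase, had 34.5, 36.4 and 39.3 FPKM in the ZsGreen-positive libraries and 78.5, 81.8 and 82.6 FPKM in the ZsGreen-negative libraries (log2 fold change -1.12 ± 0.067, limma adjusted p = 1.11e-05). P4HA2, its relative, averaged 14.4 ± 3.71 FPKM in ZsGreen-positive and 26.2 ± 1.69 FPKM in ZsGreen-negative libraries (SD, n = 3 each; log2 fold change -0.85 ± 0.18, limma adjusted p = 0.00474). Both alpha subunits were thus lower, P4HA1 2.2-fold and P4HA2 1.82-fold by the means.

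The lysyl hydroxylases PLOD1 and PLOD2, which prepare collagen for cross-links, moved in opposite directions. PLOD2, the hydroxylase of collagen telopeptides and a known HIF target, had 13.9, 15.6 and 12.7 FPKM in the ZsGreen-positive libraries against 36.2, 37.7 and 36.7 FPKM in the ZsGreen-negative libraries (log2 fold change -1.33 ± 0.087, limma adjusted p = 1.67e-05). PLOD1, the hydroxylase of the collagen helix, had 42.7, 39.2 and 42.4 FPKM in the ZsGreen-positive libraries against 25, 27.4 and 26.8 FPKM in the ZsGreen-negative libraries (log2 fold change 0.63 ± 0.070, limma adjusted p = 0.00021). The ratio of PLOD1 to PLOD2 was 3.08, 2.50 and 3.34 in ZsGreen-positive and 0.690, 0.727 and 0.731 in ZsGreen-negative libraries, so a different isoenzyme was the more abundant one in each group. LOXL2, a lysyl oxidase that forms the cross-links, averaged 4.59 ± 1.28 FPKM in ZsGreen-positive and 7.15 ± 0.217 FPKM in ZsGreen-negative libraries (log2 fold change -0.57 ± 0.16, limma adjusted p = 0.0201). Its call was lost on leaving out ZsGreen-positive replicate 1 (adjusted p = 0.0527), each ZsGreen-negative replicate in turn (0.0541 to 0.0662) and after the rescaling (0.0682). LOX, the founding lysyl oxidase, was not tested and had 0.538, 0.263 and 0.386 FPKM in ZsGreen-positive and 0.465, 0.396 and 0.320 FPKM in ZsGreen-negative libraries, with overlapping groups.

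The promoters of PLOD1 and PLOD2 are set side by side because the isoenzymes differ in direction, with P4HA1 as a further enzyme of collagen. PLOD1 lies at chr1:11934467-11934716 (plus strand), PLOD2 at chr3:146161185-146161434 (minus strand) and P4HA1 at chr10:73096867-73097116 (minus strand).
PLOD1: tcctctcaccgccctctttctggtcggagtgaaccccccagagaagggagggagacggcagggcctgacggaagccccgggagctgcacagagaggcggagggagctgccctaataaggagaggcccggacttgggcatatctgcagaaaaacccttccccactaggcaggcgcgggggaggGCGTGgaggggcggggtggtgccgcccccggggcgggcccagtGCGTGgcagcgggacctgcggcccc
PLOD2: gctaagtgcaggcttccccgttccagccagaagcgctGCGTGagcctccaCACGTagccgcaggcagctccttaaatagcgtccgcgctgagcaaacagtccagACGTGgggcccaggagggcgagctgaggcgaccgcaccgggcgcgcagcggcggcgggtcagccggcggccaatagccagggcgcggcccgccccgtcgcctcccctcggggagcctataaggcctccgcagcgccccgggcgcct
P4HA1: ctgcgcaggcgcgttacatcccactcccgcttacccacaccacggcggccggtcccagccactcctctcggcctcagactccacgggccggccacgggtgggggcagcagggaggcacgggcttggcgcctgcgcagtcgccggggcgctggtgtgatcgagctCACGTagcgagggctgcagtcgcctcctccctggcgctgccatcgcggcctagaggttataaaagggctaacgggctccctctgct
PLOD1 has GCGTG beginning 68 and 25 bases before its start and no ACGTG. PLOD2 has GCGTG at 213, CACGT at 200 and ACGTG at 146 bases before its start. P4HA1 has CACGT at 86 bases before its start.

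Among 11 intracellular targets, 7 fell, 1 rose and 3 did not pass, where 30.0% of all tested genes fell and 29.4% rose. NDRG1, a stress protein long used as a hypoxia marker, had 35.2, 33.8 and 29.1 FPKM in the ZsGreen-positive libraries against 84.4, 82.8 and 84.5 FPKM in the ZsGreen-negative libraries (log2 fold change -1.34 ± 0.080, limma adjusted p = 1.11e-05). RIOK3, a kinase of the RIO family, had 14.4, 19.7 and 13.4 FPKM in ZsGreen-positive cells and 40.7, 44.3 and 42.6 FPKM in ZsGreen-negative cells (log2 fold change -1.39 ± 0.14, limma adjusted p = 0.00011). Both falls left the groups well apart, by 2.56-fold for NDRG1 and 2.69-fold for RIOK3 in the means. ANKRD37, a small ankyrin-repeat protein induced by HIF, was listed at 1.89, 2.49 and 0 FPKM in ZsGreen-positive and 9.79, 8.33 and 10.7 FPKM in ZsGreen-negative libraries. Its log2 fold change of -2.29 ± 0.44 (limma adjusted p = 0.00303) rests in part on the 0, and was -3.59 with a pseudocount of 0.1 and -1.20 with a pseudocount of 5.

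WSB1, a ubiquitin ligase subunit that can target VHL, was the target outside the collagen enzymes that rose. It had 29.2, 30.8 and 30.0 FPKM in the ZsGreen-positive libraries against 22.4, 22.8 and 23.2 FPKM in the ZsGreen-negative libraries (log2 fold change 0.38 ± 0.062, limma adjusted p = 0.00141). The difference was small and even, with no overlap.

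Smaller falls were found for 4 further targets. DDIT4 (REDD1), an inhibitor of mTORC1 signalling, was by its mean the most abundant member in both groups. It was at 202 ± 20.4 FPKM in ZsGreen-positive and 307 ± 7.56 FPKM in ZsGreen-negative cells (log2 fold change -0.60 ± 0.079, limma adjusted p = 0.000468). Its log2 fold change was -0.94 with quantile normalisation. GBE1, the glycogen branching enzyme, averaged 19.1 ± 1.93 FPKM in ZsGreen-positive and 26.8 ± 1.12 FPKM in ZsGreen-negative libraries (limma adjusted p = 0.00294). After the rescaling the log2 fold change of GBE1 was -0.29, against -0.47 ± 0.089 as deposited. TMEM45A, a membrane protein, was at 6.82 ± 1.97 FPKM in ZsGreen-positive and 9.88 ± 0.512 FPKM in ZsGreen-negative libraries (log2 fold change -0.50 ± 0.17, limma adjusted p = 0.0387). JMJD6, an oxygen-dependent lysyl hydroxylase, had 22.9, 12.2 and 13.2 FPKM in ZsGreen-positive and 23.5, 27 and 22 FPKM in ZsGreen-negative libraries.

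JMJD6 and TMEM45A gave the least steady calls of all members. JMJD6 passed with an adjusted p of 0.0461 in limma (log2 fold change -0.61 ± 0.22) although its groups overlapped, and ZsGreen-positive replicate 1 was at the level of the ZsGreen-negative libraries. With that library as the only positive one the log2 fold change of JMJD6 was -0.071. The call was lost in 9 of 16 alternatives, among them the omission of ZsGreen-positive replicate 2 or 3 (adjusted p = 0.133 and 0.132) and of each ZsGreen-negative replicate (0.0739 to 0.132). The call on TMEM45A was lost in 7 of 16, among them the omission of ZsGreen-positive replicate 1 or 2 (adjusted p = 0.0962 and 0.0919) and of each ZsGreen-negative replicate (0.0738 to 0.107).

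Targets that did not pass were FAM162A, ZNF395 and AK4. FAM162A, a mitochondrial protein linked to cell death in hypoxia, had 83.5, 69.7 and 75.6 FPKM in ZsGreen-positive and 57.9, 68.7 and 67.8 FPKM in ZsGreen-negative libraries (log2 fold change 0.23 ± 0.095, limma adjusted p = 0.0682). It passed as higher after the rescaling (adjusted p = 0.00335), without ZsGreen-positive replicate 2 (0.0359) and when replicate 1 alone stood for the ZsGreen-positive group (0.0380). ZNF395, a zinc finger transcription factor, averaged 12.3 ± 1.17 FPKM in ZsGreen-positive and 13.4 ± 0.909 FPKM in ZsGreen-negative libraries (limma adjusted p = 0.347). AK4, a mitochondrial adenylate kinase, averaged 16.7 ± 1.35 FPKM in ZsGreen-positive and 17.4 ± 0.569 FPKM in ZsGreen-negative libraries (limma adjusted p = 0.553). The small differences of ZNF395 and AK4 turned positive after the rescaling.

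**Figure D3:**
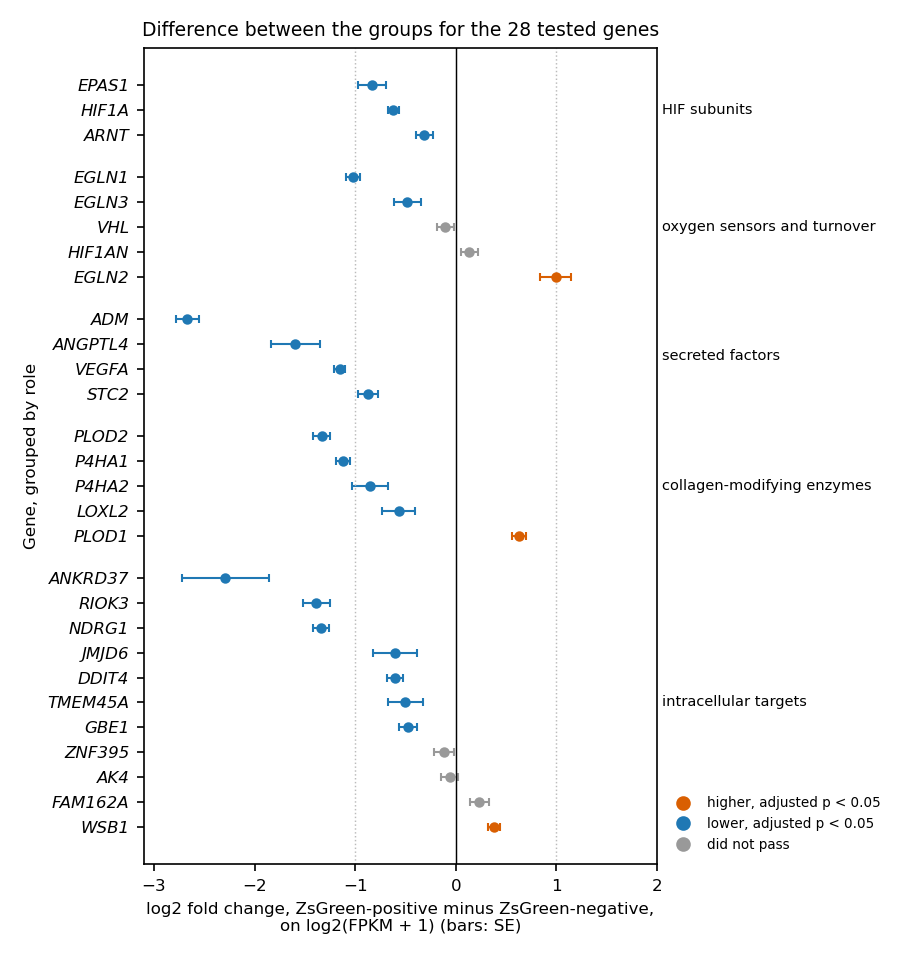
Log2 fold change, ZsGreen-positive minus ZsGreen-negative on log2(FPKM + 1), of the 28 tested genes with its SE as bars, grouped by role and coloured by call at an adjusted p of 0.05; dotted lines mark a 2-fold change. ADM at -2.67 and ANKRD37 at -2.29 lie farthest to the left, and EGLN2 at 0.99 lies farthest to the right.

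Genes around the pathway were read from 5 further lists, also chosen with earlier results of these data known. Of 13 tested HIF partners and turnover genes, 5 fell, 2 rose and 6 did not pass, with a median log2 fold change of -0.18. The 53.8% that passed lay below the 59.4% of all tested genes, and the genes named next are single values, not a pattern of the list. CREBBP and EP300, the paired coactivators that HIF recruits, fell to 2.30 ± 0.663 and 2.65 ± 0.812 FPKM in ZsGreen-positive libraries, against 4.60 ± 0.169 and 5.74 ± 0.233 FPKM in ZsGreen-negative libraries (limma adjusted p = 0.0062 and 0.00388). CITED2, a HIF-induced competitor for these coactivators, fell to 15.3 ± 5.39 FPKM in ZsGreen-positive cells, against 37.0 ± 0.135 FPKM in ZsGreen-negative cells (limma adjusted p = 0.00183). HSP90AB1, a chaperone that stabilises HIF-alpha, rose to 1067 ± 48.9 FPKM in ZsGreen-positive cells, against 408 ± 8.25 FPKM in ZsGreen-negative cells (limma adjusted p = 2.54e-06).

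Other HIF targets outside glycolysis were mostly lower too. Of 17 tested, 13 fell, 2 rose and 2 did not pass, with a median of -0.80. Among all tested genes 30.0% fell and 29.4% rose. The rises were those of NOS3 and of BNIP3, which is named after its value was seen. BNIP3 averaged 34.5 FPKM in ZsGreen-positive and 26.7 FPKM in ZsGreen-negative libraries (log2 fold change 0.35 ± 0.089, limma adjusted p = 0.0111). BHLHE40, a transcriptional repressor also of the circadian clock, averaged 17.4 ± 1.18 FPKM in ZsGreen-positive and 105 ± 5.49 FPKM in ZsGreen-negative libraries (log2 fold change -2.54 ± 0.074, limma adjusted p = 6.71e-07). EDN1, the vessel-constricting peptide endothelin 1, was listed at 0.517, 0.765 and 0 FPKM in ZsGreen-positive and 8.94, 8.998 and 8.73 FPKM in ZsGreen-negative libraries. It reached the mean of 1 FPKM needed for testing only through the ZsGreen-negative libraries, so its place among the 13 falls is no separate support, and its log2 fold change of -2.83 depends on the pseudocount. NOS3 averaged 1.74 ± 0.331 FPKM in ZsGreen-positive and 0.692 ± 0.189 FPKM in ZsGreen-negative libraries. It reached the mean of 1 FPKM only through the ZsGreen-positive libraries, so its place among the 2 rises is no separate support either. CXCR4, a chemokine receptor, averaged 1.22 ± 0.506 FPKM in ZsGreen-positive and 6.21 ± 0.138 FPKM in ZsGreen-negative libraries (log2 fold change -1.72 ± 0.19, limma adjusted p = 0.000198). Several of these genes answer to other pathways as well, and the share of each pathway was not tested.

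Of 21 tested glycolytic HIF targets, 8 rose, 7 fell and 6 did not pass, with a median of -0.073. Among all tested genes 29.4% rose and 30.0% fell, shares near those of the list. The glucose transporters SLC2A1 and SLC2A3 fell, SLC2A1 to 59.0 ± 0.281 FPKM in ZsGreen-positive libraries, against 135 ± 0.190 FPKM in ZsGreen-negative libraries (log2 fold change -1.18 ± 0.049, limma adjusted p = 2.54e-06). SLC2A3 was at 3.25 ± 0.315 FPKM in ZsGreen-positive and 9.54 ± 0.812 FPKM in ZsGreen-negative libraries (limma adjusted p = 5.85e-05). ALDOC, an aldolase isoenzyme, fell to 71.2 ± 11.5 FPKM in ZsGreen-positive cells, against 169 ± 2.12 FPKM in ZsGreen-negative cells (limma adjusted p = 6.12e-05). PFKL, the liver-type phosphofructokinase, rose to 64.7 ± 5.30 FPKM in ZsGreen-positive cells, against 10.9 ± 0.633 FPKM in ZsGreen-negative cells (limma adjusted p = 1.35e-06).

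Of 9 tested relatives of the collagen enzymes, 4 rose, 1 (SERPINH1, a collagen chaperone, named after its value was seen) fell and 4 did not pass, with a median of 0.39. The 55.6% that passed lay below the 59.4% of all tested genes, and the difference from the members was not tested. The rises were those of P3H1, CRTAP, COLGALT1 and P4HB. P3H1 and CRTAP, which form a collagen prolyl 3-hydroxylase complex, averaged 11.9 ± 2.49 and 16.2 ± 1.11 FPKM in ZsGreen-positive libraries, against 6.90 ± 0.0516 and 10.9 ± 0.480 FPKM in ZsGreen-negative libraries (limma adjusted p = 0.00512 and 0.00125). COLGALT1, a collagen galactosyltransferase, averaged 17.8 ± 2.54 FPKM in ZsGreen-positive and 11.6 ± 0.428 FPKM in ZsGreen-negative libraries (limma adjusted p = 0.0031). P4HB, the beta subunit that pairs with P4HA1 and P4HA2, was at 319 ± 12.6 FPKM in ZsGreen-positive and 256 ± 3.42 FPKM in ZsGreen-negative libraries (limma adjusted p = 0.0017), opposite in direction to both alpha subunits.

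DDIT4, STC2 and VEGFA are also raised by amino acid and endoplasmic reticulum stress, so 8 genes of that response were read beside them. Of these, 4 fell, 2 rose and 2 did not pass, with a median of -0.57, where 30.0% of all tested genes fell and 29.4% rose. ATF3, ASNS and PSAT1 fell, with log2 fold changes of -1.80 ± 0.087, -1.39 ± 0.055 and -1.28 ± 0.072 (limma adjusted p = 4.56e-06, 2.12e-06 and 8.65e-06). DDIT3 (CHOP), a stress transcription factor, rose to 162 ± 35.4 FPKM in ZsGreen-positive cells, against 39.7 ± 0.937 FPKM in ZsGreen-negative cells (limma adjusted p = 2.50e-05). The part of this response in the falls of DDIT4, STC2 and VEGFA was not tested.

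**Figure D4:**
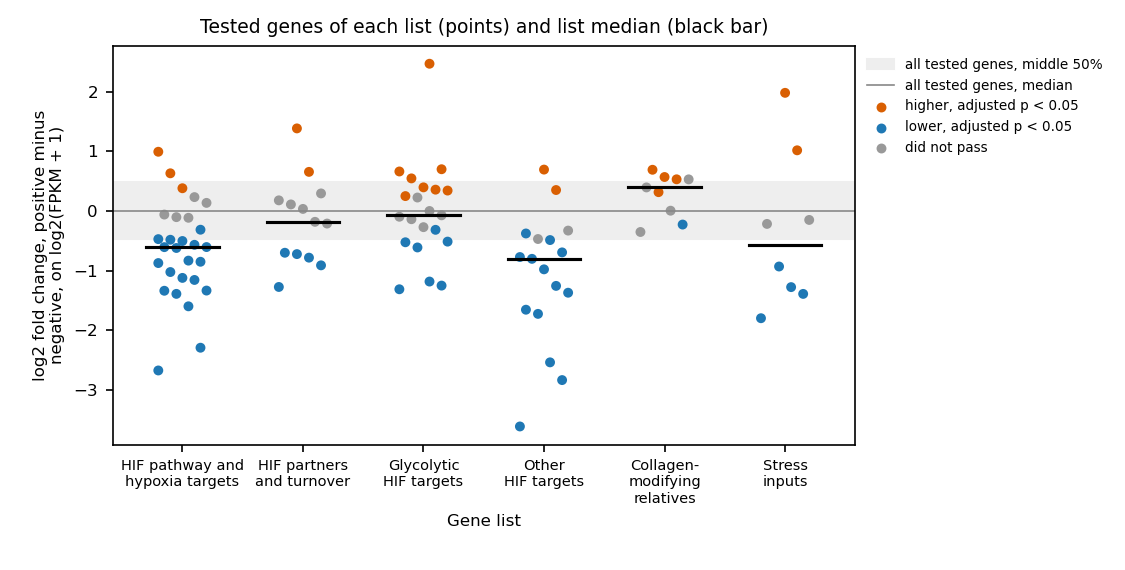
Log2 fold change, ZsGreen-positive minus ZsGreen-negative on log2(FPKM + 1), of each tested gene in the HIF pathway and hypoxia target list and in 5 lists around it; points are genes coloured by call, black bars are list medians, and the grey band holds the middle 50% of all tested genes. The medians are -0.61 for the HIF pathway and hypoxia targets, -0.80 for other HIF targets, -0.073 for glycolytic HIF targets and 0.39 for collagen-modifying relatives.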

How the data were processed

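Polyadenylated RNA of 3 ZsGreen-positive and 3 ZsGreen-negative samples was sequenced; the labels' protocols name TRIzol, a miRNeasy Micro kit and a TruSeq Stranded mRNA kit. The authors deposited 1 FPKM value per gene symbol and library. The submitters' processing notes list Cuffdiff 2.2.1, TopHat2 2.1.1, SAMtools 0.1.18 and Bowtie2 2.2.8 with the build hg19. The annotation, the strand setting and any scaling between libraries were not given in the sources used here. Where values are relative to the library total, a few abundant RNAs can shift all others. Median ratio scaling of the deposited values gave a median log2 fold change of 0.0036 for all tested genes, against 0.0040 as deposited. With it 20 members fell and 3 rose.

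The planned protein comparisons were not run. Differences were tested with limma 3.58.1 (R 4.3.3; lmFit, eBayes with trend, two-sided) on log2(FPKM + 1). Genes averaging under 1 FPKM were left out, and Benjamini-Hochberg adjustment ran over the remaining 12213. Fold changes on this scale understate the change of low genes. The fit was tested on data simulated with the same spread in both groups. The wider spread of the ZsGreen-positive group was not simulated. FPKM values are not counts, so no count model was run; depth was estimated from low values in genes with 1 transcript of at least 1000 nt (GENCODE 29), with libraries tied through the commonest ratio among low genes. Sequences came from RefSeq promoters (GRCh38.p14), and no coordinates were moved between builds. The window was shortened from a planned 300 bases around each start to the 250 before it. Python 3.11.15 with pandas 2.3.3, NumPy 2.4.6 and matplotlib 3.10.9 did the rest.

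The members, lists and tests were chosen with earlier results of these data known. Every member is named; values of each library are given for subunits and sensors, for targets that passed with a log2 fold change of at least 1 in size or that rose, and for members not tested or listed at 0. Of each other list the 4 passing genes with the largest change are named, except 1 that is not reported here. No 2 libraries shared a nonzero value for any gene.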

Additional observations from a re-analysis of the deposited data

How the results depend on the processing

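Over 16 alternatives, 15 of the 20 members that fell and all 3 that rose kept their call and direction in every alternative in which they were tested; ARNT, EGLN3, LOXL2, JMJD6 and TMEM45A lost theirs in some. Members past the threshold numbered 15 to 19 lower and 3 to 4 higher when 1 library was left out, with a median of -0.69 to -0.57, and 19 lower and 4 higher when replicate 1 alone stood for the ZsGreen-positive group, which is assumed to vary like the negative group. Rescaling to a sum of 1000000 gave a median of -0.42 for the members and log2 fold changes of 0.065 for VHL, 0.049 for ZNF395 and 0.11 for AK4, all reversed and none past the threshold; it made 62.1% of all calls higher, against 49.5% as deposited. HIF partners and turnover genes then had 5 higher, 4 when replicate 1 alone stood for the ZsGreen-positive group, and 3 lower at a minimum mean FPKM of 5, where other HIF targets had 1 higher. Collagen-modifying relatives had 1 lower as deposited, 0 with no filter, with the rescaling and without trend, and 2 at the minimum of 5 and with quantile normalisation. Leaving out 1 library gave 0 to 1 lower for these relatives and 0 to 2 higher for other HIF targets.

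With a replicate block 19 members fell and 3 rose, 0 collagen-modifying relatives fell, and the call on ARNT was lost; it changed no other member's call. Same-numbered libraries did not deviate together (Pearson correlations across genes of -0.021, -0.030 and -0.021), so the numbers were not taken as pairs. The causes of these changes were not tested. Precision is limited by 3 libraries a group, and below 1 FPKM by the few fragments there.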
